A study of Homo sapiens with 6 samples.

Results

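The androgen synthesis and reduction enzymes were followed as 10 genes chosen by name: AKR1C1, AKR1C2, AKR1C3, SRD5A1, SRD5A3, HSD17B2, HSD17B4, HSD17B6, HSD17B11 and HSD3B1. All 10 were among the 29804 gene symbols counted. Of these, 8 passed the filter on low counts and belonged to the 14672 genes tested, and HSD17B2 and HSD3B1 had 0 counts in every library. The RNA came from 22Rv1, an androgen receptor-positive human prostate carcinoma epithelial cell line of WT genotype in every group. Untreated WT cells were harvested at week 0, and age matched (AM) cells were grown for 6 weeks without treatment. The 6WP cells were grown for 6 weeks and exposed on week days to 1 µg/ml of phleomycin, a radiomimetic drug that breaks DNA, for 1 hour a day. Each group held 2 libraries, which the labels call biological replicates, and all cells came from 1 established line.

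Androgens are made from cholesterol by a chain of enzymes, and prostate tumours can also make them from adrenal precursors. In that route a hydroxysteroid dehydrogenase of the HSD3B family opens the path from dehydroepiandrosterone to androstenedione, a ketosteroid reductase such as AKR1C3 makes testosterone, and a reductase of the SRD5A family makes dihydrotestosterone, the stronger ligand of the androgen receptor. Other enzymes of the same families work against this route, by reducing dihydrotestosterone to a weak diol or by oxidising testosterone back to androstenedione.

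Within this set, 6WP cells held 1.89 to 2.04 times the transcripts of the 3 AKR1C reductases found in AM cells, and 1.71 times the AKR1C3 of WT cells. HSD17B4 was lower in 6WP cells than in AM cells, to 0.775 times, and HSD17B11 was lower in AM cells than in WT cells, to 0.713 times. SRD5A1, SRD5A3 and HSD17B6 did not pass the test in any comparison. A gene is said to be called where edgeR's quasi-likelihood test gave a p under 0.05 after Benjamini-Hochberg adjustment over all 14672 genes.

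In 6WP against WT cells, 1 of the 8 tested enzymes was called, AKR1C3, where 3% of all tested genes were, 1.63% higher and 1.37% lower. No enzyme was called lower, a count of 0 in edgeR's quasi-likelihood test that was also 0 with DESeq2, although 2 were lower at an unadjusted p under 0.05. In 6WP against AM cells, 4 of 8 were called, 3 higher and 1 lower, where 21.3% of all genes were, 11.7% higher and 9.68% lower. The 3 higher are the AKR1C genes, neighbours of similar sequence whose reads may be shared, so they are not 3 independent calls. In AM against WT cells, 1 of 8 was called, HSD17B11, which was lower, where 17.7% of all genes were, 7.74% higher and 9.93% lower. The count of enzymes higher there was 0 in edgeR, at an unadjusted p under 0.05 and with DESeq2. The split of all genes depended on the scaling. With upper quartile scaling, 2276 genes were higher and 1062 lower in 6WP against AM cells instead of 1711 and 1420, and 689 were higher and 1832 lower in AM against WT cells instead of 1136 and 1457. With library size alone, the latter split was 729 and 1664.

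Groups of 2 libraries often do not overlap. They did not overlap for 5 of 8 enzymes in 6WP against WT cells, against 50.7% of all genes, and for 6 of 8 in AM against WT cells, against 73.8%. In 6WP against AM cells 8 of 8 did not overlap, against 62.3% of all genes. The median log2 fold change of the 8 was -0.07 in 6WP against WT, 0.02 in 6WP against AM and -0.14 in AM against WT cells, beside 0.01, 0.05 and -0.002 for all tested genes. The set held genes on both sides of 0 in each comparison.

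Library totals ran from 21222201 to 35311945 counts, so that 3 counts, taken as the smallest detectable amount, equalled 0.0850 to 0.141 CPM (counts relative to the library total). Other CPM values also carry the TMM scaling. These floors cover counting error only. The 6WP libraries differed from each other more than those of the other groups. The median absolute log2 difference between replicates was 0.278 in 6WP cells, against 0.121 in WT and 0.129 in AM cells, and results that depend on 1 of the 6WP libraries are given with and without it. All 7 luminal epithelial markers checked were above 1 CPM in every library, and PTPRC, CD3E, CDH5 and KRT5 were at 0 in all of them. The summed level was at most 0.179 CPM for 3 basal and 0.138 CPM for 3 endothelial markers, and 2.35 to 3.70 CPM for 4 leukocyte markers, nearly all of it CD68. Summed, 6 fibroblast and stromal markers held 17.1 to 20.98 CPM in WT, 2.21 to 3.36 in AM and 3.21 to 5.57 in 6WP. Most of the WT level was LUM, at 345 and 270 counts in WT, 11 and 10 in AM and 36 and 12 in 6WP libraries. DCN was also highest in WT libraries (39 and 37 counts, at most 6 elsewhere). COL1A1 had 34 to 55 counts in all libraries, and COL3A1 was highest in 6WP replicate 1, at 49 counts. The part of these markers in the comparisons with WT cells was not tested. In bulk RNA, a change in the share of cells that express a gene and a change in the RNA per cell cannot be told apart. The 3 comparisons share libraries, 2 comparisons to each group, and are therefore not independent of each other.

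AKR1C1, AKR1C2 and AKR1C3 encode aldo-keto reductases that lie side by side on chromosome 10 (GRCh38), AKR1C1 at chr10:4963253-4983283 on the plus strand, AKR1C2 at chr10:4987775-5018031 on the minus strand and AKR1C3 at chr10:5035354-5107686 on the plus strand. Since these neighbours were all higher in 6WP than in AM cells, the 250 bases upstream of the RefSeq start (GRCh38.p14) at the canonical GENCODE transcript of each are shown, 5′ to 3′ on the strand of the gene. Capitals mark ATTGG, the reverse complement of the letters CCAAT.
AKR1C1, chr10:4963165-4963414, plus strand: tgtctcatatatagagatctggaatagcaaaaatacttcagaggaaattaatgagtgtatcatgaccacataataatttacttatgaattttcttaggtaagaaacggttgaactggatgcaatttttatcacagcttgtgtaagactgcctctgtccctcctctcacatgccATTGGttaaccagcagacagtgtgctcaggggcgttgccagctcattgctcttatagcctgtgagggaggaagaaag
AKR1C2, chr10:5003858-5004107, minus strand: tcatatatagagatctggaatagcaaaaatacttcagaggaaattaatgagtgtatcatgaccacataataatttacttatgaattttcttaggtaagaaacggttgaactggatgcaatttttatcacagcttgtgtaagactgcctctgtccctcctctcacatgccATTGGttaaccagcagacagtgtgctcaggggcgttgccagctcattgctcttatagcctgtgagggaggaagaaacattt
AKR1C3, chr10:5094164-5094413, plus strand: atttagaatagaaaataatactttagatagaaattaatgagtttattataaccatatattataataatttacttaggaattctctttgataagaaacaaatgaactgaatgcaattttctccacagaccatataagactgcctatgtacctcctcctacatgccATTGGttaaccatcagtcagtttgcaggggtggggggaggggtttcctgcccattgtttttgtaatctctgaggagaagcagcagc
Gaps in an alignment were counted as differences. The windows of AKR1C1 and AKR1C2 were then 96.5% identical, while that of AKR1C3 was 69.2% identical to AKR1C1 and 69.8% to AKR1C2. The capitals lie 77, 81 and 86 bases before the start in AKR1C1, AKR1C2 and AKR1C3. On either strand, CCAAT was found in 4 of the 8 enzyme windows given in RefSeq, these 3 and HSD17B11, and in 32.0% of 35116 human windows of the same length. Since the AKR1C windows resemble each other, the 4 are not independent matches. The letters TGACNNNGC, a core of antioxidant response elements, were found in the SRD5A3 window alone among the 8 and in 10.9% of all windows. The androgen response element core letters TGTTCT were found in 0 of the 8 windows and in 12.4% of all windows. These are matches of letters in 250 bases, and binding was not measured. Sequence farther upstream was not searched, so a gene without a match here may hold one elsewhere. RefSeq lists 1 other start for AKR1C3, whose window (chr10:5048531-5048780) was 70.7% identical to that of AKR1C1 and 68.8% to that of AKR1C2 and held CCAAT 73 bases before the start. HSD3B1 also has 1 other start, and none of the counts of enzymes with a motif changes with these windows. HSD17B2 and HSD17B6 had no window.

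AKR1C3 makes testosterone from androstenedione and is also known as a prostaglandin synthase. Its level was 21.7 and 24.3 CPM in the WT libraries, 17.6 and 20.99 CPM in the AM libraries, and 41.1 and 37.6 CPM in the 6WP libraries. Both 6WP libraries lay above all 4 others, and AM lay below WT without overlap. The mean was 39.4 ± 2.43 CPM in 6WP, 19.3 ± 2.42 in AM and 23.0 ± 1.81 in WT cells (SD, n = 2 each). Against AM cells the log2 fold change was 1.03 (SE 0.14, 95% interval 0.70 to 1.35, adjusted p = 0.00473 by edgeR's quasi-likelihood test). Against WT cells it was 0.78 (SE 0.14, 95% interval 0.45 to 1.10, adjusted p = 0.0328). The difference between AM and WT cells, at -0.25, did not pass the test (adjusted p = 0.243).

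Without 6WP replicate 1 the rise of AKR1C3 against AM cells was 0.96 on the log2 scale, and without replicate 2 it was 1.05. With a 6WP library left out, the spread was estimated from the WT and AM pairs alone, whose libraries differed less. Keeping or gaining a call in such a fit is therefore no check of it. The call against AM cells was lost when AM replicate 1 or AM replicate 2 was left out of edgeR's test. Over all 15 alternatives the log2 fold change was 0.91 to 1.17. The call against WT cells was less stable, since 6 of 15 alternatives lost it. They were leaving out WT replicate 1 (adjusted p = 0.398), WT replicate 2 (0.242), AM replicate 1 (0.0914) or AM replicate 2 (0.0921), fitting only the 2 groups compared (0.0914), and summing the AKR1C genes (0.0592). All 15 gave a log2 fold change of 0.66 to 0.86, where 0.66 belongs to the summed AKR1C genes. For AKR1C3 itself the lowest value was 0.70, without 6WP replicate 1.

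AKR1C2 inactivates dihydrotestosterone by reducing it to the diol. It was measured at 20.3 and 17.5 CPM in WT, 14.6 and 16.8 CPM in AM, and 34.7 and 24.95 CPM in 6WP libraries. The 6WP libraries were the highest of the 6, although they differed from each other by more than those of the other groups. AKR1C2 rose by a log2 fold change of 0.92 against AM cells (SE 0.19, 95% interval 0.49 to 1.35, adjusted p = 0.0142 by edgeR's quasi-likelihood test). Against WT cells the value was 0.66 (SE 0.19, 95% interval 0.23 to 1.08), which did not pass (adjusted p = 0.0956) but did with DESeq2 (0.0415). Without 6WP replicate 2 the difference from WT cells was 0.85, and without replicate 1 it was 0.38. The call against AM cells was lost without AM replicate 1 (adjusted p = 0.130) or AM replicate 2 (0.0880) in edgeR, at log2 fold changes of 0.82 and 1.03. Over all 15 alternatives the value was 0.66 to 1.11. The difference between AM and WT cells was -0.26 and did not pass (adjusted p = 0.344).

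AKR1C1, which reduces progesterone and can also act on dihydrotestosterone, was measured at 14.1 and 12.9 CPM in WT, 8.87 and 9.48 CPM in AM, and 23.1 and 13.9 CPM in 6WP libraries. One 6WP library was well above all others, and the other lay within the range of the WT libraries. Against AM cells AKR1C1 rose by a log2 fold change of 1.01 (SE 0.23, 95% interval 0.47 to 1.55, adjusted p = 0.0224 by edgeR's quasi-likelihood test). Against WT cells the value was 0.46 (SE 0.23, 95% interval -0.08 to 0.99, adjusted p = 0.290). The value against WT cells rested on 6WP replicate 1, since it was 0.03 without that library and 0.75 without replicate 2. Against AM cells the values were 0.59 without 6WP replicate 1 and 1.298 without 6WP replicate 2. The call against AM cells was lost in 5 of 15 alternatives in edgeR, namely without AM replicate 1 (adjusted p = 0.152), AM replicate 2 (0.131), WT replicate 1 (0.0595) or WT replicate 2 (0.0587), and with only the 2 groups fitted (0.0603). Between AM and WT cells AKR1C1 had a log2 fold change of -0.55 that did not pass (adjusted p = 0.139). It passed in a fit of these 2 groups alone (adjusted p = 0.00271), where edgeR called 6620 genes instead of 2593.

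**Figure D1:**
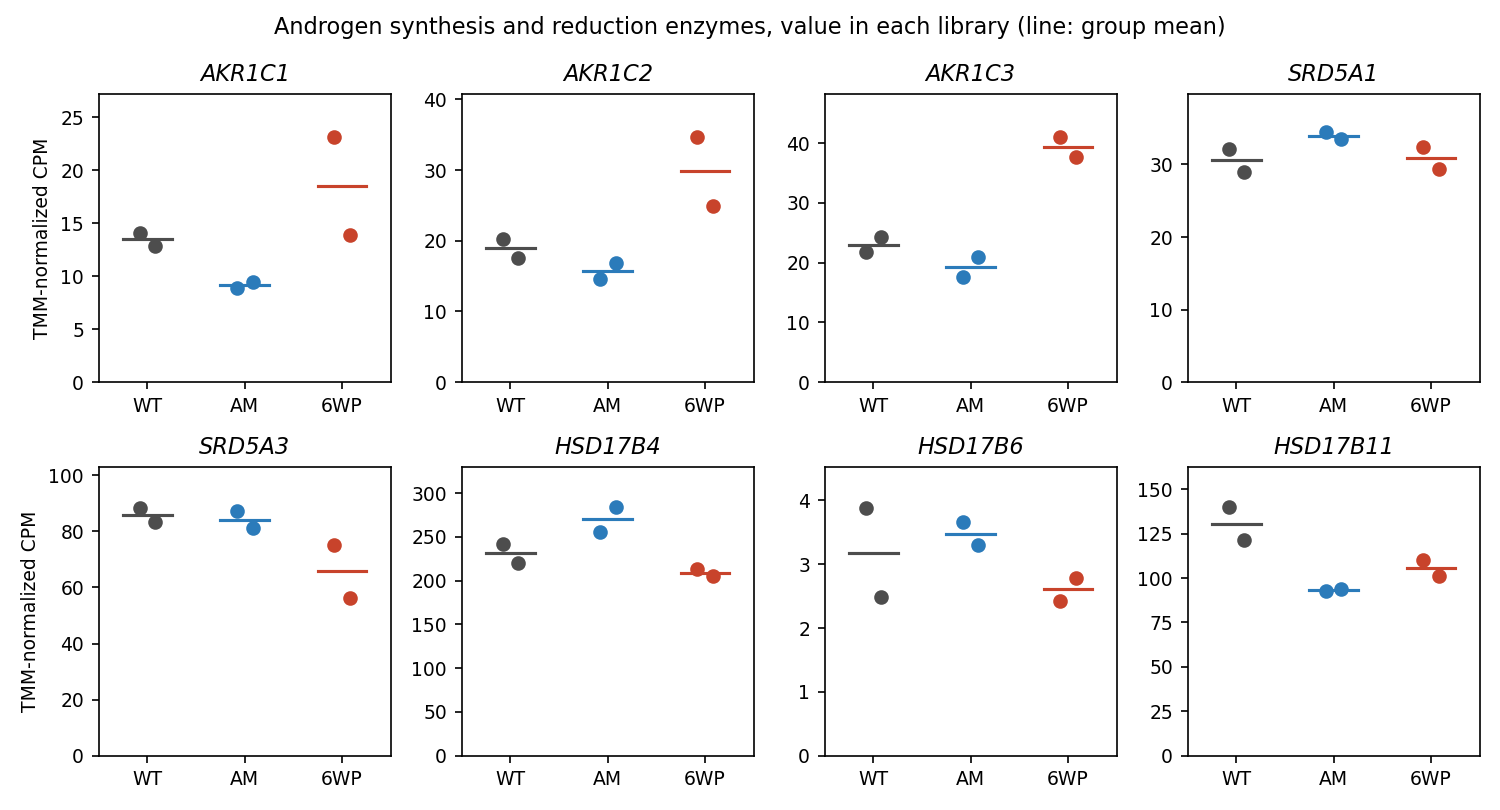
TMM-normalized level (CPM, vertical axis from 0) of the 8 detected enzymes in each library of the WT, AM and 6WP groups, with 1 point per library and a line at the group mean. In the AKR1C3 panel the 6WP libraries, at 41.1 and 37.6 CPM, lie above the other 4, while in the AKR1C1 panel 1 of the 6WP points, at 13.9 CPM, lies at the level of the WT points.

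The AKR1C transcripts are alike enough for reads to be shared or lost between them, so their separate counts are uncertain. The coding sequences of AKR1C1 and AKR1C2 were identical at 950 of 969 positions (98.0%), and AKR1C3 was 91.4% identical to AKR1C1 and 91.0% to AKR1C2. Of all windows as long as a read, 100 bases, 12.6% in the canonical AKR1C1 transcript, 27.8% in AKR1C2 and 7.82% in AKR1C3 also occurred in transcripts of another gene. Summed with AKR1C4, the AKR1C counts had a log2 fold change of 0.99 in 6WP against AM cells (adjusted p = 0.00627, edgeR). The sum differed from WT cells by 0.66 (adjusted p = 0.0592), and AM differed from WT cells by -0.33 (adjusted p = 0.157), so neither of these passed.

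Ratios of counts within a library do not depend on the scaling between libraries, but they carry the changes of both genes. HSD17B4 was itself lower in 6WP than in AM cells (log2 fold change -0.37), and HSD17B11 in AM than in WT cells (-0.49). For every 100 counts of HSD17B4, AKR1C3 had 8.95 and 11.0 counts in WT, 6.88 and 7.37 in AM, and 19.3 and 18.3 in 6WP libraries. The lowest 6WP ratio was above the highest of the other groups. For every 100 counts of HSD17B11 there were 15.5 and 19.96 counts of AKR1C3 in WT, 18.9 and 22.4 in AM, and 37.2 and 37.3 in 6WP libraries, and again the 6WP libraries stood above the rest. Within the AKR1C counts, AKR1C3 took 38.7% and 44.4% of the counts of the 3 genes in WT, 42.8% and 44.4% in AM, and 41.5% and 49.2% in 6WP libraries, ranges that overlap. The AKR1C1 share was 25.1% and 23.5% in WT, 21.6% and 20.04% in AM, and 23.4% and 18.2% in 6WP libraries. It was higher in both WT libraries than in the other 4, and the AM and 6WP ranges overlapped. The AKR1C2 share was 36.2% and 32.1% in WT, 35.57% and 35.59% in AM, and 35.1% and 32.6% in 6WP libraries, where the WT range covered both other groups and AM lay above 6WP.

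**Figure D2:**
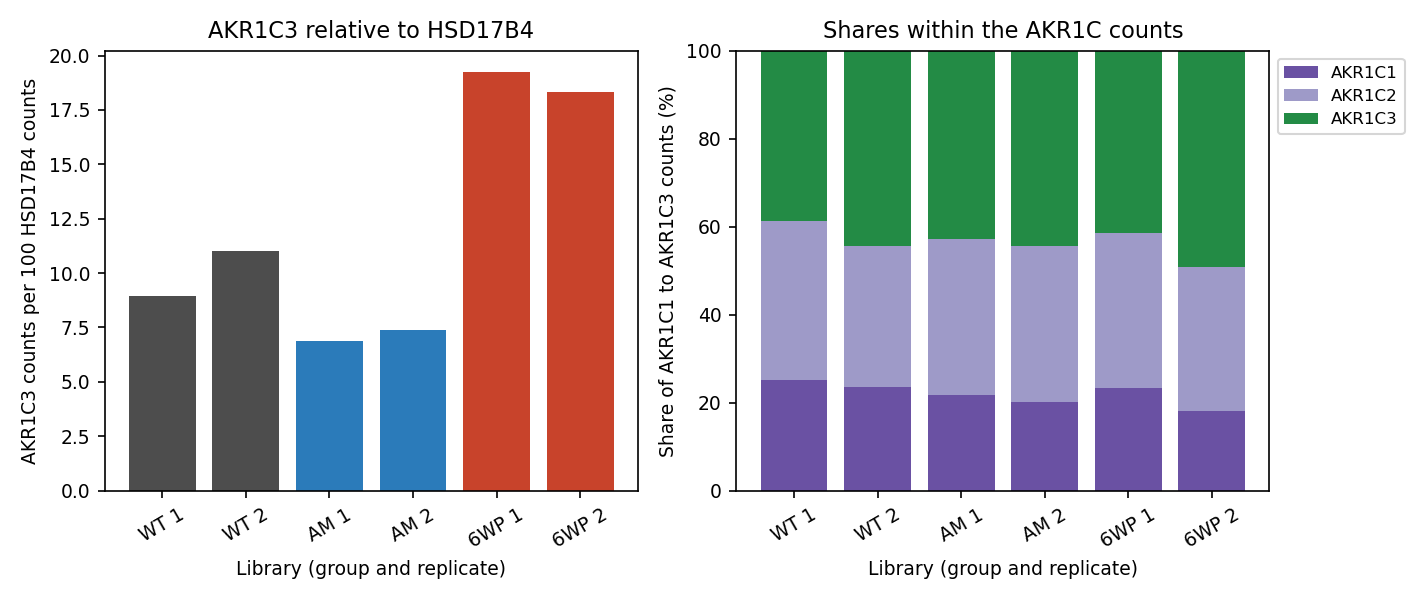
Left, counts of AKR1C3 per 100 counts of HSD17B4 in each of the 6 libraries (bars from 0), and right, the percent of the summed AKR1C1, AKR1C2 and AKR1C3 counts that each gene takes. The 6WP bars reach 19.3 and 18.3 against at most 11.0 elsewhere, whereas the AKR1C3 share lies between 38.7% and 49.2% with overlap of the groups.

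SRD5A1 (chr5:6633427-6674386, plus strand) reduces testosterone and androstenedione, the step to dihydrotestosterone that this family is known for. It was measured at 32.1 and 28.99 CPM in WT, 34.5 and 33.4 in AM, and 32.4 and 29.4 in 6WP libraries. The 6WP libraries overlapped those of WT, and the AM libraries lay slightly above both. The log2 fold change against WT cells was 0.02, with a 95% interval of -0.27 to 0.30, and its sign turned with DESeq2 size factors, with library size alone, and without WT replicate 2 or 6WP replicate 1. The values were -0.14 for 6WP against AM and 0.15 for AM against WT cells, and none of the 3 comparisons passed (lowest adjusted p = 0.401, edgeR's quasi-likelihood test).

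SRD5A3 (chr4:55346213-55373100, plus strand) is best known as a polyprenol reductase in protein glycosylation and has also been described as a steroid reductase. It was measured at 88.5 and 83.2 CPM in WT, 87.1 and 81.2 in AM, and 75.1 and 56.3 in 6WP libraries. The 6WP libraries were the lowest of the 6, and they differed widely from each other. The log2 fold change was -0.39 against WT cells (SE 0.15, 95% interval -0.73 to -0.05, adjusted p = 0.179) and -0.36 against AM cells (SE 0.15, adjusted p = 0.120), neither of which passed edgeR's test, and -0.03 in AM against WT cells (adjusted p = 0.904). Without 6WP replicate 1 the differences from WT and AM cells were -0.62 and -0.58, and without replicate 2 they were -0.22 and -0.19. An unnamed gene model on the same strand and SRD5A3-AS1 on the opposite strand overlap its exons, and 36.4% of the read-length windows of its canonical transcript occurred in transcripts of another gene. All of these shared windows occurred in the gene model on the same strand, which a strand setting cannot separate. How the counting treated strand and reads with several matches was not given in the sources used here. The share of these counts from the neighbours of SRD5A3 is therefore unknown. There were 2.75 and 2.87 counts of SRD5A3 for each count of SRD5A1 in WT, 2.52 and 2.43 in AM, and 2.32 and 1.92 in 6WP libraries, which do not overlap between groups.

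HSD17B4 (chr5:119452465-119637199, plus strand) is a peroxisomal enzyme of fatty acid oxidation that also oxidises estradiol and related steroids. It had the highest CPM of the set, at 243 and 220.5 in WT, 255 and 285 in AM, and 213 and 205 in 6WP libraries. The order AM, WT, 6WP held without overlap. HSD17B4 was lower in 6WP than in AM cells, at a log2 fold change of -0.37 (SE 0.11, 95% interval -0.62 to -0.11, adjusted p = 0.0481 by edgeR's quasi-likelihood test). This call lay near the threshold, and 10 of 14 alternatives lost it, with adjusted p-values of 0.0512 to 0.306. Among them were leaving out WT replicate 1 (0.110), WT replicate 2 (0.0958), AM replicate 1 (0.153) or AM replicate 2 (0.306). All 14 gave log2 fold changes from -0.45 to -0.28. The differences between 6WP and WT cells (-0.15, adjusted p = 0.470) and between AM and WT cells (0.22, adjusted p = 0.189) did not pass. The latter passed in a fit of the 2 groups alone (adjusted p = 0.0383), where edgeR called 6620 genes instead of 2593.

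HSD17B11 (chr4:87336515-87391188, minus strand) is a lipid droplet enzyme that oxidises the diol made from dihydrotestosterone. It was measured at 139.8 and 122 CPM in WT, 92.8 and 93.6 in AM, and 110.4 and 101 in 6WP libraries. The WT libraries were the highest and the AM libraries the lowest, with 6WP between them. HSD17B11 was lower in AM than in WT cells, at a log2 fold change of -0.49 (SE 0.11, 95% interval -0.75 to -0.22, adjusted p = 0.0264, edgeR). The call was lost when WT replicate 1 (adjusted p = 0.226), WT replicate 2 (0.129), AM replicate 1 (0.165) or AM replicate 2 (0.182) was left out, at log2 fold changes between -0.57 and -0.38. In 6WP cells the gene differed by -0.31 from WT (SE 0.11, 95% interval -0.57 to -0.04, adjusted p = 0.170) and by 0.18 from AM cells (adjusted p = 0.281), and neither passed. Without 6WP replicate 1 the difference from WT cells was -0.39, and without 6WP replicate 2 it was -0.27.

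HSD17B6 (chr12:56752161-56787790, plus strand) oxidises the diol back to dihydrotestosterone. It was the least abundant of the 8 tested genes in CPM, at 3.88 and 2.48 in WT, 3.66 and 3.30 in AM, and 2.42 and 2.78 in 6WP libraries, which correspond to 54 to 112 counts. The WT libraries spanned the AM libraries and part of the 6WP range. The log2 fold change was -0.41 against AM cells (adjusted p = 0.302) and -0.29 against WT cells (95% interval -0.93 to 0.35, adjusted p = 0.575) in edgeR's test, and 0.12 in AM against WT cells (adjusted p = 0.773). The sign of the value between 6WP and WT cells turned without WT replicate 1 (0.07), and that between AM and WT cells without WT replicate 2 (-0.14). PRIM1 overlaps the exons of HSD17B6 on the opposite strand, so reads of the pair could be mixed if strand was not used. HSD17B2 (chr16:82035004-82098534, plus strand) oxidises testosterone to androstenedione and HSD3B1 (chr1:119507198-119515054, plus strand) makes androstenedione from its precursor. Both had 0 counts in all 6 libraries, which allows levels of up to 3 counts, or 0.0850 to 0.141 CPM depending on the library.

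**Figure D3:**
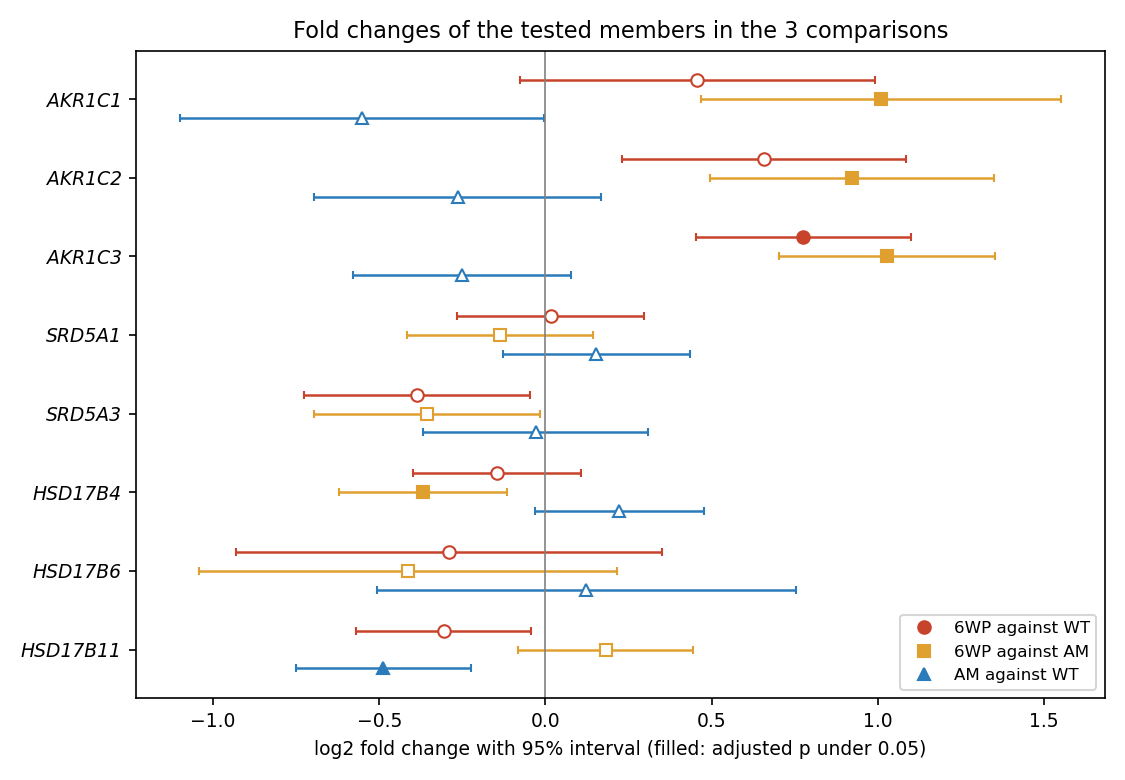
Log2 fold change (horizontal axis) of the 8 tested enzymes in the 3 comparisons, with lines for the 95% interval and filled symbols for an adjusted p under 0.05 in edgeR's quasi-likelihood test. The filled symbols are the AKR1C genes and HSD17B4 in 6WP against AM, AKR1C3 in 6WP against WT, and HSD17B11 in AM against WT.

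Levels can be compared between genes only per length. In CPM per kilobase (kb) of the canonical GENCODE transcript, HSD17B4 stood first in WT cells at 88.1 ± 5.93 (SD, n = 2), followed by HSD17B11 at 73.3 ± 7.27. SRD5A3 (21.1) and AKR1C3 (19.4) came next, then AKR1C2 (5.88) and SRD5A1 (4.34), and HSD17B6 (2.10) and AKR1C1 (2.06) were last. In WT cells the libraries of the last pair overlapped, and in AM cells those of AKR1C2 and SRD5A1 did. The order in 6WP cells differed from the others for AKR1C3, which at 33.2 CPM per kilobase lay above SRD5A3 at 16.2, and for AKR1C1, at 2.83, above HSD17B6, at 1.72. The order depends on the transcript chosen, since with the length of all exons together HSD17B11 (56.0 CPM per kb in WT cells) came before SRD5A3 (11.1) and HSD17B4 (9.30). With that length AKR1C1 (1.54) already lay above HSD17B6 (1.40) in WT cells. AKR1C3 had rank 4 in WT cells under both lengths.

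**Figure D4:**
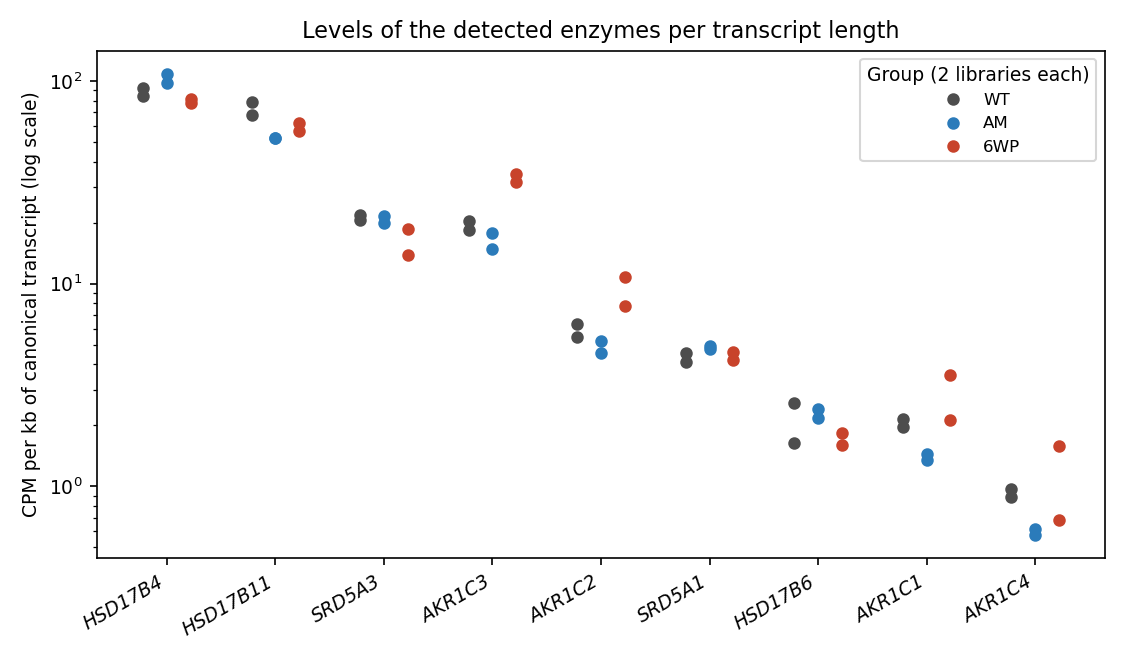
CPM per kilobase of canonical transcript (log axis) in each library for the 8 detected enzymes and for AKR1C4, which is outside the set, ordered by the WT mean, with 1 point per library. The 6WP points of AKR1C3, with a mean of 33.2, lie above those of SRD5A3, with a mean of 16.2, while in WT and AM they lie below.

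Earlier steps of steroid synthesis were examined with a list of 13 genes for cholesterol delivery and early steroidogenesis, of which 6 were tested. CYP17A1, which makes the first androgens from pregnenolone and progesterone, had 0 counts in every library, and HSD3B2, the relative of HSD3B1, had at most 1. In 6WP against AM cells CYB5A, the cytochrome b partner of CYP17A1, fell by 0.57 on the log2 scale (adjusted p = 0.0413, edgeR), from 72.7 and 85.9 CPM to 61.6 and 45.6. It was the single call of this list there, where 21.3% of all genes were called. In edgeR this call was lost with upper quartile scaling (adjusted p = 0.0629) and with library size alone (0.0621). In the other comparisons edgeR's quasi-likelihood test called 0 of the 6 genes of this list, as did DESeq2, and 0 had an unadjusted p under 0.05. Of all genes, edgeR called 3% in 6WP against WT and 17.7% in AM against WT cells. Beside all-gene medians of 0.01, 0.05 and -0.002, the median log2 fold change of the list was 0.04, -0.10 and 0.15 in the comparisons of 6WP with WT, 6WP with AM and AM with WT.

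Of 20 other steroid oxidoreductases, 13 were tested. In 6WP against WT cells 1 was higher and 1 lower, in 6WP against AM cells 4 were higher and 2 lower, and in AM against WT cells 1 was higher and 3 lower. All tested genes were called in 3%, 21.3% and 17.7% of cases in these comparisons. HSD17B14, an oxidative enzyme of estradiol, rose by log2 fold changes of 1.38 (adjusted p = 0.0449) and 1.89 (0.00622) in 6WP against WT and AM cells, at 3.58 and 3.52 CPM in the 6WP libraries and at most 1.61 in the others. The call against WT cells was lost with a replicate block (adjusted p = 0.0505), with library size alone (0.0534) and in the fit of the 2 groups (0.118) in edgeR. HSD17B7, which also acts in cholesterol synthesis, fell by 1.25 (adjusted p = 0.00882) and 1.64 (0.00202), to 12.2 and 10.4 CPM from 25.9 and 27.98 in WT and 38.7 and 31.9 in AM libraries. RDH5, a retinol dehydrogenase, was 9.51 and 12.3 CPM in WT, 2.88 and 2.83 in AM, and 9.47 and 5.11 in 6WP libraries, with edgeR's log2 fold changes of -1.93 in AM against WT (adjusted p = 0.00839) and 1.35 in 6WP against AM cells (0.0211). RDH11, a retinal reductase, had a log2 fold change of -0.75 in AM against WT cells (adjusted p = 0.0367), and H6PD, which supplies NADPH inside the endoplasmic reticulum, had one of -0.68 (0.0412). The remaining calls, named after their values were seen, were HSD17B10 in AM against WT (0.67), and RDH11 (0.70), H6PD (0.68) and HSD17B10 (-0.52) in 6WP against AM cells.

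Of the genes that catalyse the same steps as the enzymes, AKR1C4, the liver relative of the 3 AKR1C genes, was at 1.16 and 1.06 CPM in WT, 0.689 and 0.736 in AM, and 1.88 and 0.811 in 6WP libraries, and its log2 fold change of 0.91 against AM cells did not pass (adjusted p = 0.171, edgeR). HSD17B3, which makes testosterone in the testis, had 0 to 6 counts per library, and SRD5A2, the main reductase of the normal prostate, had 0 in all 6. The median of the oxidoreductase list was 0.002 in 6WP against WT, 0.25 in 6WP against AM and -0.29 in AM against WT cells, beside all-gene medians of 0.01, 0.05 and -0.002.

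Sulfation stores inactive steroid precursors, and 7 of 9 genes of sulfation and desulfation were tested. STS, the sulfatase that frees dehydroepiandrosterone from its sulfate, was 8.53 and 10.3 CPM in WT, 14.6 and 14.99 in AM, and 6.69 and 8.21 in 6WP libraries. It fell by 0.99 in 6WP against AM cells on the log2 scale (adjusted p = 0.00978, edgeR) and was higher by 0.66 in AM than in WT cells (0.0391). It was the single call of the list in each of these comparisons, in which 21.3% and 17.7% of all genes were called. The call in AM against WT cells was lost with upper quartile scaling (adjusted p = 0.0640) and with library size alone (0.0536). For 6WP against WT cells 0 of the 7 were called by edgeR's quasi-likelihood test and by DESeq2, and 1 had an unadjusted p under 0.05. The medians of the list were -0.16, -0.16 and 0.18 in the comparisons of 6WP with WT, 6WP with AM and AM with WT.

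The AKR1C genes also belong to the genes regulated by NRF2, the factor of the antioxidant response, and 14 of 15 other genes of that regulon were tested. In 6WP against AM cells 1 was called higher, SLC7A11, and 5 lower, where 11.7% of all genes were higher and 9.68% lower. SLC7A11, a cystine transporter also known as an ATF4 target, rose by 1.04 (adjusted p = 0.00721, edgeR). GCLM, a subunit of the enzyme of glutathione synthesis, fell by 0.66 (adjusted p = 0.0221), and PGD, of the pentose phosphate pathway, fell by 0.56 (0.00934). The other 3 that were lower, named after their values were seen, were GSR (-0.48), TALDO1 (-0.47) and TXNRD1 (-0.42). In 6WP against WT cells TXNRD1, thioredoxin reductase, fell by 0.61 (adjusted p = 0.0329) and was the single call, where 3% of all genes were called. In AM against WT cells 3 were higher, where 7.74% of all genes were, with log2 fold changes of 0.50 for TALDO1 (adjusted p = 0.0198), 0.40 for PGD (0.0301) and 0.34 for GSR (0.0485). GSR was lost in 9 of 14 alternatives, among them both other filters, the replicate block, upper quartile scaling and library size alone, and PGD was also lost with upper quartile scaling (0.0589). The medians were -0.18, -0.44 and 0.33 in the comparisons of 6WP with WT, 6WP with AM and AM with WT. Whether NRF2 has a part in the levels of the AKR1C genes was not tested.

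Genes that respond to androgen were examined in the same cells, and 9 of 11 were tested. In 6WP against AM cells 2 were higher, TMPRSS2 by 1.47 (adjusted p = 0.0347, edgeR) and SLC45A3 by 1.44 (0.0128), and 2 were lower, FKBP5 (-0.65) and KLK2 (-0.50). The last of these names was added after its value was seen. All genes were called higher in 11.7% and lower in 9.68% of cases there. In AM against WT cells TMPRSS2 and SLC45A3 had log2 fold changes of -1.71 (adjusted p = 0.0256) and -1.60 (0.0109), and 1 gene, KLK2, a kallikrein, was higher by 0.81 (0.00759), where 17.7% of all genes were called. TMPRSS2 was 91.0 and 95.7 CPM in WT, 24.5 and 32.4 in AM, and 42.0 and 115.5 in 6WP libraries, so that its 6WP libraries differed more from each other than did those of AKR1C3, and in the other order. For 6WP against WT cells 0 of the 9 were called by edgeR's quasi-likelihood test and 1 by DESeq2, and 3 had an unadjusted p under 0.05. The medians were -0.04, 0.07 and -0.10 in the comparisons of 6WP with WT, 6WP with AM and AM with WT. Whether androgen-responsive transcripts follow the enzymes was not tested.

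Many calls of the lists were lost under an alternative. Of the 11 calls in AM against WT cells, all 11 were lost when WT replicate 1, WT replicate 2, AM replicate 1 or AM replicate 2 was left out. Of the 18 in 6WP against AM cells, 12 were lost without WT replicate 1, 12 without WT replicate 2, 16 without AM replicate 1 and 17 without AM replicate 2. Of the 3 in 6WP against WT cells, 3 were lost without WT replicate 1 or WT replicate 2, and 2 without AM replicate 1 or AM replicate 2. Leaving out a 6WP library lost none of these calls, but the spread then came from the WT and AM pairs alone, so this is no check. No direction turned. Fitting only the 2 groups compared lost 12 of the 18 calls in 6WP against AM cells, 2 of 3 in 6WP against WT cells and none of the 11 in AM against WT cells. Upper quartile scaling lost 2 of 18, 0 of 3 and 3 of 11, and library size alone lost 1 in 6WP against AM, 1 in 6WP against WT and 2 in AM against WT cells. The replicate block lost 1 call in 6WP against WT cells, HSD17B14, and 1 in AM against WT cells, GSR. HSD17B7 in 6WP against AM cells was called under all 14 alternatives, at log2 fold changes between -1.77 and -1.49. The 6WP libraries set the size of several values against AM cells, which without 6WP replicate 2 were 0.52 for TMPRSS2, 0.92 for SLC45A3, 0.30 for RDH11, 0.39 for H6PD and -0.40 for CYB5A on the log2 scale. Without 6WP replicate 1 they were 0.84 for RDH5 and -0.45 for FKBP5.

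**Figure D5:**
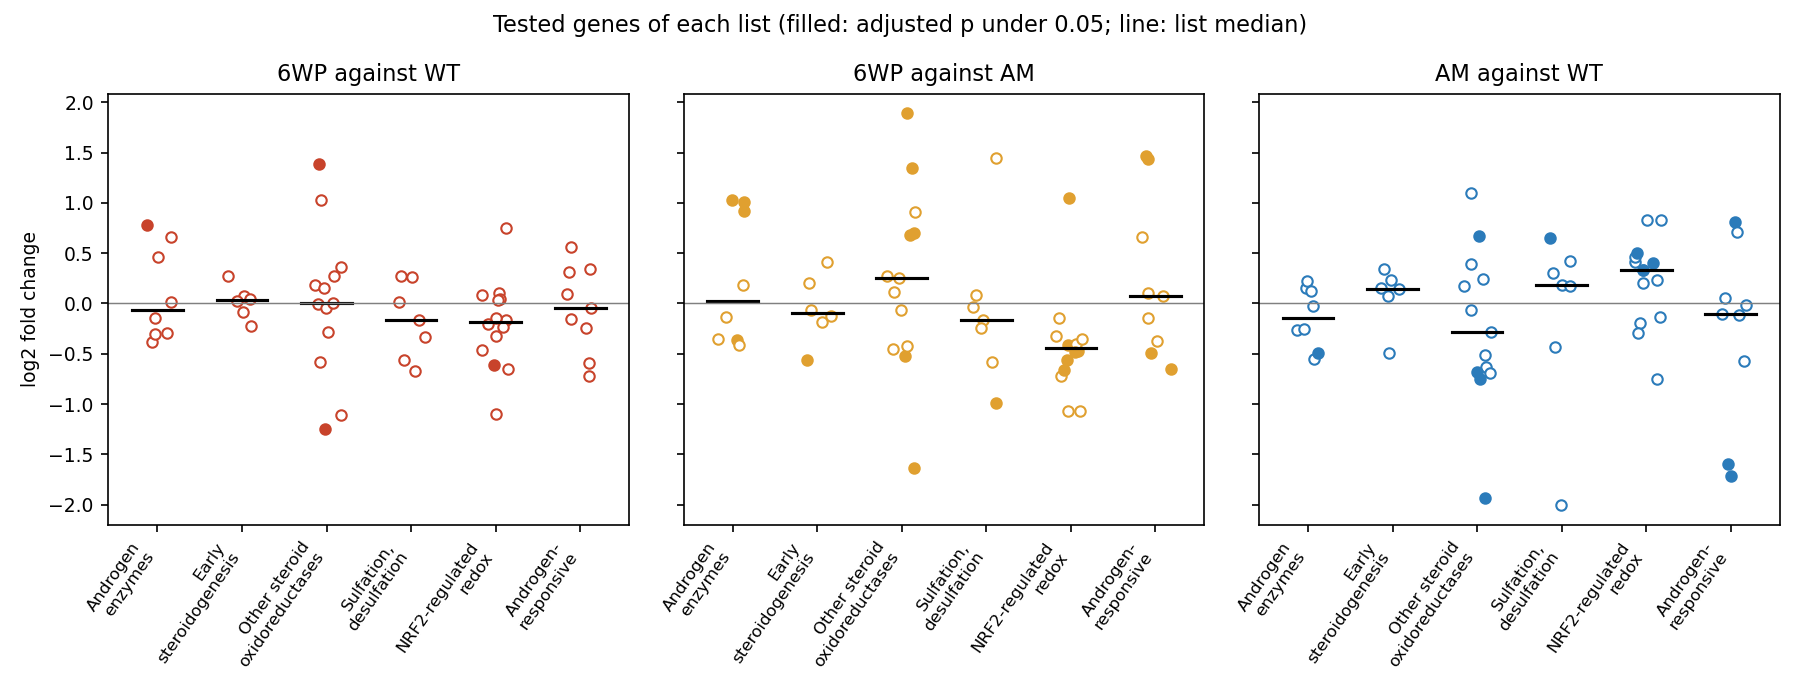
Log2 fold change (vertical axis) of each tested gene of the androgen enzymes and of the 5 lists in the 3 comparisons, with a line at the list median and filled points for an adjusted p under 0.05 by edgeR. In 6WP against AM the filled AKR1C points lie between 0.92 and 1.03. The NRF2-regulated list has its median at -0.44 there, at 0.33 in AM against WT and at -0.18 in 6WP against WT.

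AKR1C3 had the smallest adjusted p of the set, and the genes whose log2 CPM followed it most closely over the 6 libraries were ZCCHC8 (Pearson's r = 0.997), NICN1 and EIF3G (0.995 each), ELMO3 (0.993) and MUS81 (0.993). They are the closest of 12036 genes over 6 libraries that share 3 groups, and they are given as a description without a test. Within the set r with AKR1C3 was 0.935 for AKR1C2 and 0.840 for AKR1C1, 0.0754 for HSD17B11, and negative for SRD5A1 (-0.495), HSD17B6 (-0.749), SRD5A3 (-0.755) and HSD17B4 (-0.801).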

How the data were processed

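The series holds RNA-seq of 22Rv1 cells, with 2 libraries in each of 3 groups. The deposited values are raw counts that the authors made for 29804 gene symbols, and no normalization had been applied to them. The submitters' processing notes name STAR 2.5.3a, Subread featureCounts 1.5.3, StringTie 1.3.3, edgeR 3.22.3 and R 3.5.0, and the genome build was hg38. The 100-base reads were single end. The library kit keeps strand, but the strand setting, the gene annotation and the treatment of reads with several matches are not given in the sources used here.

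From these counts, edgeR 4.0.16 in R 4.3.3 kept genes by filterByExpr with the 3 groups (14672 genes), computed TMM factors and fitted a quasi-likelihood model without covariates in which all 6 libraries shared their estimate of the spread. The 3 pairwise comparisons were tested two-sided, with Benjamini-Hochberg adjustment over all tested genes and a threshold of 0.05. Each SE was derived from the log2 fold change and its F statistic, and the 95% intervals are the log2 fold change ± t times its SE. An exact permutation test of 2 against 2 libraries cannot give a p below 0.333. Library totals ranged from 21222201 to 35311945 counts. The pipeline was tested on simulated data. Replicates differed by more than sampling noise (chi-square per degree of freedom 5.83 to 67.2), and each counted as 1 sample.

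The enzymes, pathway lists, markers and rules for naming genes were chosen with earlier results of these data known. Every enzyme was described, and of a list up to 3 called genes per comparison with the largest change, and the genes for the same step as an enzyme, were named. Alternatives were DESeq2 1.42.0 (size factors and Wald test), upper quartile scaling, library size only, other filters, a replicate block, fits to 2 groups alone or without each library in turn, and summed AKR1C counts. Positions and transcript lengths were taken from GENCODE 44 (GRCh38), upstream windows from RefSeq (GRCh38.p14), and alignments were made with Biopython 1.88. Protein sequences were not used here. 1 gene of the lists is not reported here.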

Additional observations from a re-analysis of the deposited data

How the results depend on the processing

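Of 345 values of the enzymes under alternatives, 296 kept their direction and their side of the threshold, 29 lost a call, 11 gained one and 9 turned direction. Most of the 345 were not called in the main fit. Calls in 6WP against AM cells were lost in 5, 2 and 2 of 15 alternatives for AKR1C1, AKR1C2 and AKR1C3, and in 10 of 14 for HSD17B4. AKR1C3 in 6WP against WT cells lost its call in 6 of 15, and HSD17B11 in AM against WT cells in 4 of 14. In 6WP against WT cells, 894 genes were called without a filter on low counts, 1124 genes and 2 enzymes with the Wald test of DESeq2, 96 genes and 0 enzymes when only the 2 groups were fitted by edgeR, and 0 enzymes with the AKR1C counts summed. Fitting the 2 groups alone gave 1309 genes and 2 enzymes in 6WP against AM cells, and 6620 genes and 3 enzymes in AM against WT cells. Leaving out each library in turn gave 0 to 3 enzymes and 0 to 3870 genes in 6WP against WT, 0 to 5 enzymes and 116 to 6807 genes in 6WP against AM, and 0 to 3 enzymes and 67 to 6654 genes in AM against WT cells, and a group left with 1 library was assumed to vary like the others. SRD5A1 in 6WP against WT cells turned to -0.00404 with DESeq2 size factors, -0.00741 with library size only, -0.00409 with DESeq2, and ranged from -0.0724 to 0.0923 with a library left out. HSD17B6 ranged from -0.578 to 0.0702 in 6WP against WT and from -0.14 to 0.49 in AM against WT cells, and SRD5A3 from -0.0894 to 0.0219 in AM against WT cells. No turned value was called, and the cause of these shifts was not tested. Deviations of the replicates were little correlated between groups (0.0873 for WT with 6WP, 0.0395 for WT with AM and -0.0206 for AM with 6WP). With 2 libraries per group this cannot show whether the replicates were paired. With a replicate block, 393, 3069 and 2485 genes and 1, 3 and 1 enzymes were called in the comparisons of 6WP with WT, 6WP with AM and AM with WT, of which 343, 2846 and 2307 genes were also called without it. HSD17B4 in 6WP against AM cells had an adjusted p of 0.0700 under the block. With 2 libraries per group, low counts limit the precision for HSD17B6 (54 to 112 counts) and the genes with 0 counts most.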
